A study of Eisenia fetida with 15 samples.

Results

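The nuclear receptors of the compost earthworm *Eisenia fetida* are described here across a soil test with the insecticide lindane. The transcriptome table of 241846 unigenes, which are contigs assembled from the reads without a genome, gave 14 unigenes a protein name with a term for estrogen, estrogen-related, nuclear, retinoic acid, retinoid X, ecdysone or thyroid hormone receptors. A nuclear receptor corepressor was set aside, 13 remained, and 10 were taken: contig_115639, named from an earlier look at these data, and the 9 others with the highest mean FPKM. FPKM is a level corrected for the length of the unigene and the size of the library, so it can be compared between unigenes. Since the 10 were chosen by their protein name and their mean FPKM over the 15 libraries, their rank by level is a description, and so is every value of contig_115639, for which no test is given.

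Whole-body sections of adult worms gave 15 libraries in 5 triplets, and the soil of exposed worms held a nominal 2.4 mg/kg of lindane. By the code of each library, 0d-7d and 0d-28d stand for soil freshly spiked and exposures of 7 d and 28 d, 30d-7d and 30d-28d for soil aged 30 d after spiking and the same exposures, and control is given neither lindane, aging nor exposure; the labels do not say what its soil held. The treatment text displaces this by one triplet: there 0d-7d is the unexposed triplet at 0 d, fresh soil is assigned to 0d-28d (7 d) and 30d-7d (28 d), and aged soil to 30d-28d (7 d) and control (28 d). The same libraries form a triplet under either naming; triplets are called here by their code, and each direction is between triplets as coded. Nothing states that a triplet holds separate worms; p-values therefore describe the spread among libraries, which may be technical.

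Nuclear receptors are transcription factors with a zinc-finger DNA-binding domain and, in most members, a pocket for a small lipid-soluble ligand such as a steroid, a retinoid or a thyroid hormone. The retinoid X receptor (RXR) pairs with many other members of the family on DNA, and in insects its counterpart ultraspiracle forms the ecdysone receptor together with EcR. Estrogen receptors of polychaete annelids bind estrogens, whereas those of molluscs are active without ligand, and coactivator complexes such as Mediator link bound receptors to RNA polymerase II. Lindane blocks chloride channels gated by GABA in nerve cells of insects.

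The libraries held 13182058 to 28022746 counted reads. Marker lists for other tissues took very uneven shares of the reads: 0.0137% to 3.89% for gut enzymes, 0.00215% to 2.03% for blood globins, 0.133% to 1.11% for muscle proteins, 0.0206% to 0.457% for germ line and sperm proteins and 0.0275% to 0.0606% for nerve proteins. No marker unigene was at 0 in all 15 libraries. The gut list had 22 of its 106 unigenes with reads in all 15 libraries, the blood list 14 of 23, the muscle list 23 of 31, the germ line list 35 of 58 and the nerve list 36 of 56. In 0d-28d library 3 the germ line and sperm list stood at 0.457%, against at most 0.0705% in each of the other 14 libraries, and blood and gut were at their lowest. In such bulk sections fewer cells of a type and less RNA per cell cannot be told apart. FPKM and read counts also did not keep one scale: for the 10 unigenes, FPKM divided by read density (reads over unigene length and library total, on the same scale) had a median of 1.06 in 30d-7d library 1 and 0.628 to 0.834 in the other 14 libraries, so a separation between triplets is given on the FPKM scale and on TMM-scaled CPM, which are read counts relative to the library's total after TMM, a normalization that uses the bulk of the unigenes. The ratio also differed between unigenes. For 36148 unigenes with at least 10 reads in each library its median was 0.995 to 1.35, above that of the 10 in every library.

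**Figure D1:**
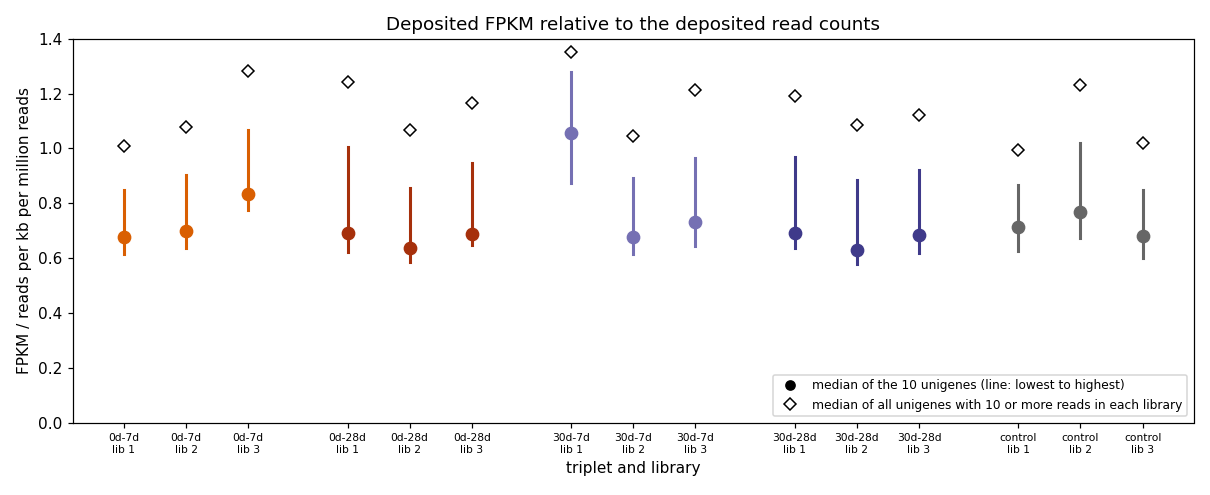
Deposited FPKM divided by read density (reads over unigene length and library total), for each library. Filled points are the median of the 10 unigenes described here, lines run from their lowest to their highest value, and open diamonds are the median of 36148 unigenes with at least 10 reads in each library. 30d-7d library 1 stands above all others for these 10, at 1.06.

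Of the 10 names, 8 are those of receptors, and the levels spanned 21.6 to 1.38 FPKM as means over 15 libraries. The RXR unigenes contig_42751 and contig_4148 were highest, at 21.6 and 19.1 FPKM, and lay above 97.2% and 96.7% of all unigenes, whose median was 0.448 FPKM. These ranks are those of the deposited FPKM. The other receptor unigenes stood at 5.05 FPKM (contig_22045), 3.94 FPKM (contig_53187), 3.03 FPKM (contig_79620), 3.02 FPKM (contig_72837), 2.09 FPKM (contig_60040) and 1.38 FPKM (contig_115639). The remaining names belong to partners of the pathway, an ecdysone-induced factor at 7.13 FPKM (contig_19775) and a coactivator subunit at 2.75 FPKM (contig_38629). All 10 had reads in all 15 libraries and passed the filter on low counts. The next unigenes of the name search lay far below: contig_92013 (ecdysone-induced protein 78c, 0.285 FPKM), contig_395730 (nuclear receptor subfamily 2 group E member 1, 0.0675 FPKM) and contig_547985 (retinoic acid receptor, 0.0417 FPKM). contig_60040 is the last taken by level.

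**Figure D2:**
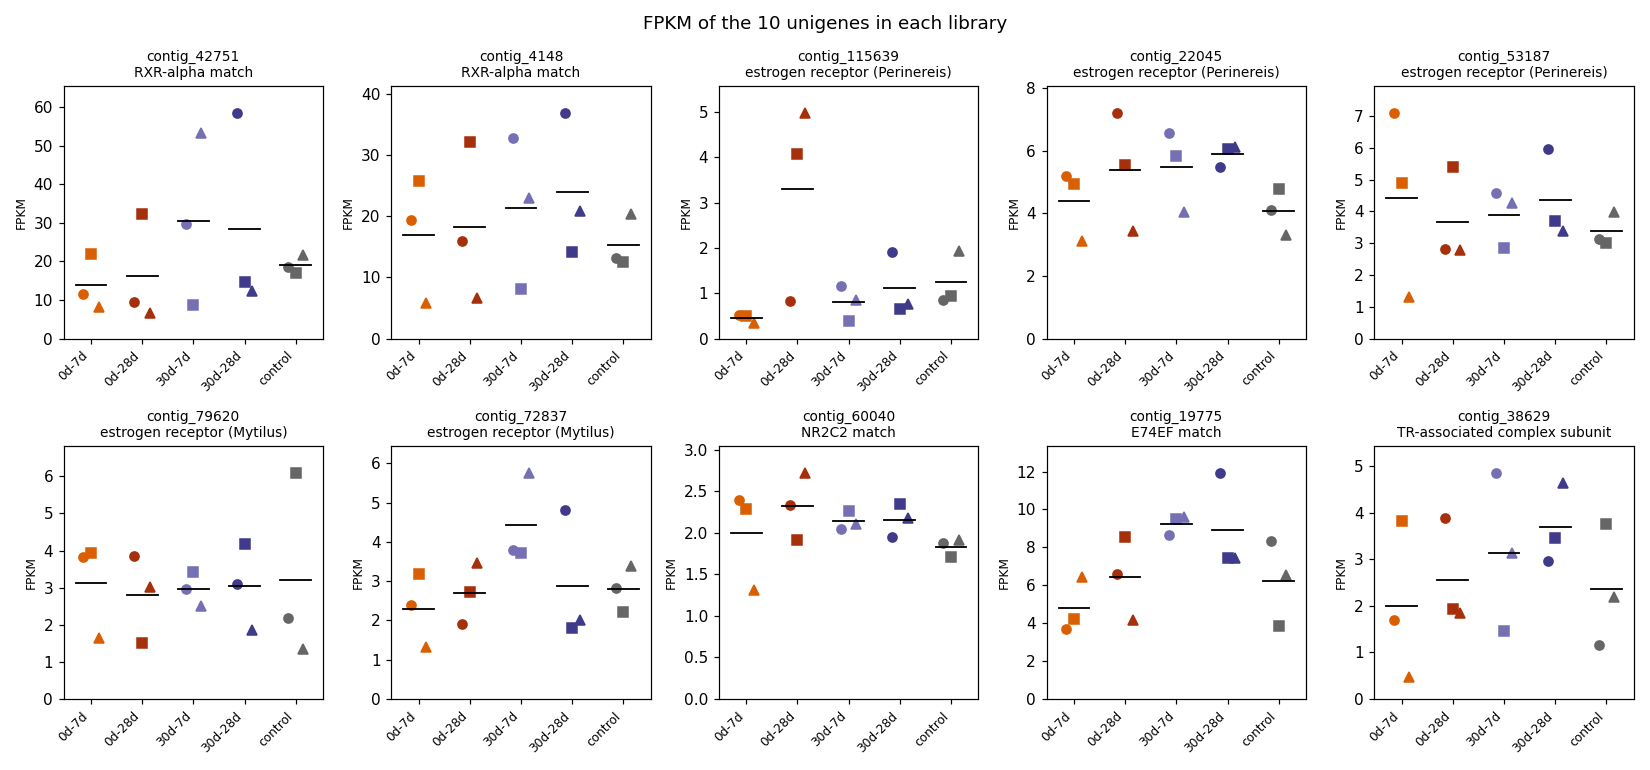
FPKM of each of the 10 unigenes (y axis from 0, scaled per panel) in the 15 libraries, by triplet. Circles, squares and triangles are libraries 1, 2 and 3 and lines are triplet means. Most panels show triplets that overlap; contig_115639 has its highest values, 4.07 and 4.98 FPKM, in 0d-28d libraries 2 and 3.

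The RXR unigenes, the partners of many receptors, were the most abundant, and their levels were widely spread within exposed triplets. Both match the same protein of the oyster *Crassostrea gigas*, retinoic acid receptor RXR-alpha. contig_42751 (3711 bases) had 11.7, 22.0 and 8.30 FPKM in 0d-7d, 9.50, 32.2 and 6.64 FPKM in 0d-28d, 29.7, 8.75 and 53.3 FPKM in 30d-7d and 58.4, 14.6 and 12.3 FPKM in 30d-28d, against 18.5, 16.9 and 21.7 FPKM in control. The control libraries lay close together and each exposed triplet reached both below and above them, so no exposed triplet was apart from control. The triplet averages were 13.99 ± 7.14 FPKM in 0d-7d, 16.1 ± 14.002 FPKM in 0d-28d, 30.6 ± 22.3 FPKM in 30d-7d, 28.4 ± 25.9 FPKM in 30d-28d and 19.0 ± 2.42 FPKM in control (SD, n = 3 each). The mean log2 changes relative to control were 0.67 in 30d-7d (SE 0.791) and 0.69 in 30d-28d (SE 0.791), with an adjusted p of 1 in both (edgeR's quasi-likelihood test, Benjamini-Hochberg). Without 30d-7d library 3 and without 30d-28d library 1, the highest libraries of contig_42751, these became -0.22 and -0.32.

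The second RXR unigene, contig_4148 (3882 bases), had 19.3, 25.8 and 5.76 FPKM in 0d-7d, 15.9, 32.1 and 6.62 FPKM in 0d-28d, 32.7, 8.02 and 23.0 FPKM in 30d-7d and 36.8, 14.2 and 20.9 FPKM in 30d-28d, against 13.2, 12.5 and 20.4 FPKM in control. Every exposed triplet overlapped control. 30d-28d averaged 24.0 ± 11.6 FPKM and control 15.3 ± 4.36 FPKM (SD, n = 3 each), a log2 change of 0.84 (SE 0.664; edgeR's quasi-likelihood test, adjusted p = 1). Reads of both unigenes summed gave 0.76 in the same comparison (SE 0.710; adjusted p = 1), and none of the 11 comparisons called the sum.

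The RXR unigenes went up and down together from library to library. Spearman's rho between contig_42751 and contig_4148 was 0.85 over 15 libraries, 0.80 over the 13 left without the farthest pair of libraries and 0.86 on TMM-scaled CPM. The ratio of their FPKM had a median of 1.03 and ran from 0.589 in 30d-28d library 3 to 2.32 in 30d-7d library 3. contig_53187, an estrogen receptor match, followed them with a rho of 0.84 against contig_4148 and 0.74 against contig_42751, which became 0.75 and 0.55 on TMM-scaled CPM. Over all 45 pairs among the 10 unigenes rho ran from -0.34 to 0.85 with a median of 0.21, and 33 pairs were positive. These values are descriptions, since the points share libraries, their depth and their tissue make-up, and reads that fit several contigs may be shared between unigenes that match 1 protein.

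**Figure D3:**
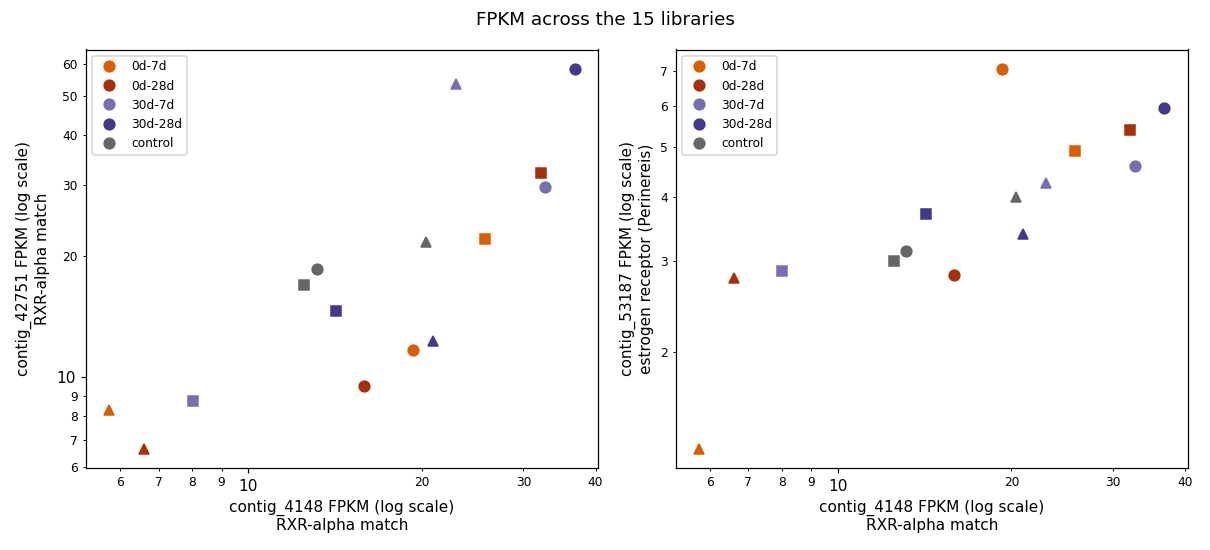
FPKM of contig_42751 (left, y axis) and contig_53187 (right, y axis) against contig_4148 (x axis), all on log scales. Each point is a library, colours are triplets, and circles, squares and triangles are libraries 1, 2 and 3. Points of every triplet are spread along the diagonal, with Spearman's rho of 0.85 on the left and 0.84 on the right.

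Among 7926 unigenes with an informative protein name and a mean of at least 1 FPKM, those most like contig_4148 across the 15 libraries were S-adenosylmethionine synthase, which makes the methyl donor of the cell (contig_7590, rho 0.95), tryptophan oxygenase (contig_210755, 0.94) and a receptor protein-tyrosine kinase (contig_6317, 0.94). For contig_42751 they were a plexin-domain protein (contig_183804, 0.93), oxidative stress-induced growth inhibitor 2 (contig_124592, 0.91) and a CCAAT enhancer binding protein, a transcription factor (contig_7084, 0.90).

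A set of 3 unigenes matches the estrogen receptor of the polychaete *Perinereis aibuhitensis*, and they were not held in a fixed proportion. contig_115639 (3074 bases), the lowest of them on average, was highest in a pair of 0d-28d libraries and lowest in the 0d-7d triplet. It had 0.530, 0.489 and 0.338 FPKM in 0d-7d, 0.836, 4.07 and 4.98 FPKM in 0d-28d, 1.15, 0.395 and 0.846 FPKM in 30d-7d and 1.91, 0.661 and 0.764 FPKM in 30d-28d, against 0.856, 0.943 and 1.94 FPKM in control. In reads, 0d-28d libraries 1, 2 and 3 held 60, 215 and 233 and the 12 other libraries 16 to 157. 0d-28d library 1, at 0.836 FPKM, lay below all control libraries, so 0d-28d and control overlapped.

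On both scales the libraries of contig_115639 were all lower in 0d-7d than in control, and all higher in 0d-28d and in 30d-28d than in 0d-7d. In the first comparison 4% of all tested unigenes were separate and lower in FPKM and 4.98% on TMM-scaled CPM. In the second 4.82% and 6.39%, and in the third 4.59% and 5.93%, were separate and higher on these scales. Its log2 change was 3.02 in 0d-28d against 0d-7d, 1.55 in 0d-28d against control, -1.48 in 0d-7d against control, -0.71 in 30d-7d against control and -0.13 in 30d-28d against control. Against 0d-28d its log2 difference was -2.26 for 30d-7d and -1.67 for 30d-28d. By the code, 30d-7d differs from 0d-28d in both soil aging and exposure time. By the treatment text both of these triplets were in fresh soil and differ in exposure time alone. Under either naming, 30d-28d and 0d-28d differ in soil aging at the same exposure time. These differences are given without a test because contig_115639 was singled out with results of these data known.

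The germ line and sperm share was higher in each 0d-28d library, at 0.0693% to 0.457%, than in the 12 libraries of the other triplets, at 0.0206% to 0.0499%. Within 0d-28d, libraries 1, 2 and 3 had germ line shares of 0.0705%, 0.0693% and 0.457% beside 0.836, 4.07 and 4.98 FPKM of contig_115639. Over the 15 libraries Spearman's rho of contig_115639 was 0.69 with the germ line and sperm share and -0.60 with the muscle share. Without 0d-28d library 3 its log2 change was 2.49 against 0d-7d and 1.02 against control. The part of tissue make-up in these differences was not tested.

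contig_22045 (1611 bases), the most abundant match to the *Perinereis* receptor, was among the steadiest unigenes of the table. It had 5.19, 4.94 and 3.10 FPKM in 0d-7d, 7.20, 5.55 and 3.44 FPKM in 0d-28d, 6.58, 5.84 and 4.06 FPKM in 30d-7d and 5.48, 6.07 and 6.13 FPKM in 30d-28d, against 4.11, 4.78 and 3.30 FPKM in control. All 30d-28d libraries lay above all control libraries and above all 0d-7d libraries, on both scales, and the other exposed triplets overlapped control. The 30d-28d triplet averaged 5.89 ± 0.358 FPKM and control 4.06 ± 0.738 FPKM (SD, n = 3 each), a log2 change of 0.59 (SE 0.331; edgeR's quasi-likelihood test, unadjusted p = 0.0965, adjusted p = 1). Its biological coefficient of variation, the spread between libraries of a triplet beyond counting error, was 0.385, and 2.48% of tested unigenes had a lower one. That comparison took tested unigenes of every level, while contig_22045 was taken for its high mean FPKM.

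contig_53187 (2031 bases) had 7.09, 4.91 and 1.30 FPKM in 0d-7d, 2.82, 5.39 and 2.78 FPKM in 0d-28d, 4.58, 2.86 and 4.25 FPKM in 30d-7d and 5.95, 3.70 and 3.39 FPKM in 30d-28d, against 3.14, 2.99 and 3.99 FPKM in control. Its highest and its lowest value both fell in 0d-7d, and no exposed triplet was apart from control. Its log2 change in 0d-7d against control was 0.35 (SE 0.529; adjusted p = 1, edgeR's quasi-likelihood test), and -0.14 without 0d-7d library 1.

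In the summed FPKM of these 3 unigenes, contig_115639 made up 4.14% to 7.14% in 0d-7d, 7.70% to 44.5% in 0d-28d, 4.34% to 9.35% in 30d-7d and 6.34% to 14.3% in 30d-28d, against 10.6% to 21.0% in control. contig_22045 ranged from 30.7% to 66.3% and contig_53187 from 24.8% to 55.3% over the 15 libraries. The sum itself averaged 9.29 ± 4.13 FPKM in 0d-7d, 12.4 ± 2.31 FPKM in 0d-28d, 10.2 ± 1.84 FPKM in 30d-7d, 11.4 ± 1.73 FPKM in 30d-28d and 8.68 ± 0.568 FPKM in control (SD, n = 3 each). The reads of the 3 unigenes added up gave a log2 change of 0.72 in 0d-28d against control. This sum includes contig_115639, so no test of it is given. Whether the 3 contigs are separate genes, splice forms or pieces of 1 gene is not given in the files.

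**Figure D4:**
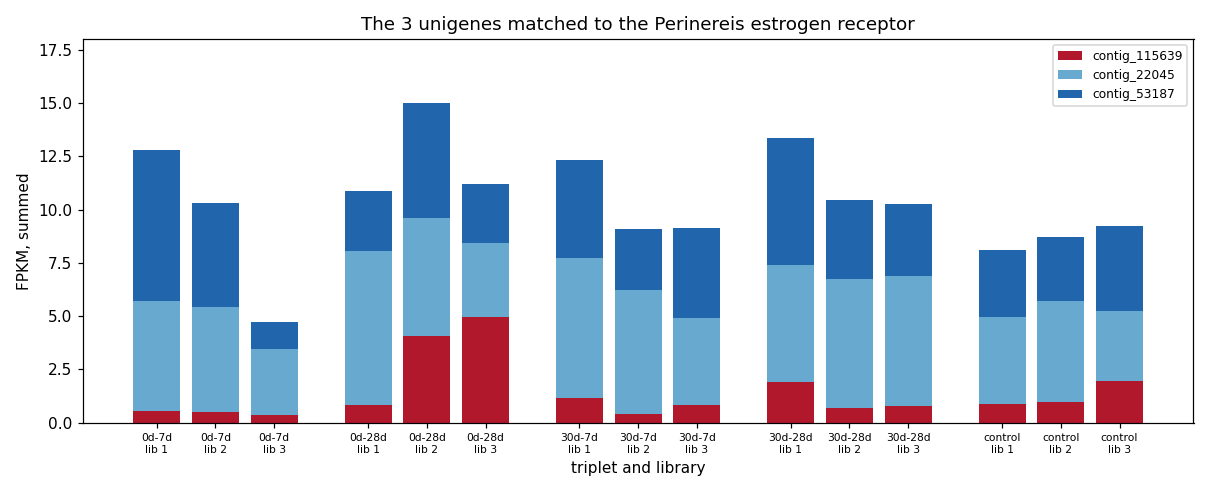
Summed FPKM (y axis) of the 3 unigenes matched to the *Perinereis* estrogen receptor in each library (x axis), stacked by unigene. contig_115639 takes 44.5% of the bar of 0d-28d library 3 and at most 7.14% in the 0d-7d libraries.

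A further pair of unigenes matches the estrogen receptor of the mussel *Mytilus galloprovincialis*. contig_79620 (2028 bases) had 3.83, 3.94 and 1.65 FPKM in 0d-7d, 3.87, 1.503 and 3.01 FPKM in 0d-28d, 2.97, 3.43 and 2.51 FPKM in 30d-7d and 3.11, 4.17 and 1.86 FPKM in 30d-28d, against 2.18, 6.08 and 1.34 FPKM in control. Control held both its highest and its lowest value, and its triplet means spanned 1.14-fold. Its log2 changes relative to control were -0.14 in 0d-7d (SE 0.605), -0.025 for 0d-28d (SE 0.605), -0.23 for 30d-7d (SE 0.605) and 0.054 for 30d-28d (SE 0.604), with an adjusted p of 1, 0.997, 1 and 1 (edgeR's quasi-likelihood test).

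contig_72837 (3543 bases) had 2.39, 3.19 and 1.32 FPKM in 0d-7d, 1.90, 2.72 and 3.45 FPKM in 0d-28d, 3.79, 3.72 and 5.74 FPKM in 30d-7d and 4.81, 1.80 and 1.997 FPKM in 30d-28d, against 2.82, 2.20 and 3.39 FPKM in control. In FPKM all 30d-7d libraries lay above those of control, of 0d-7d and of 0d-28d, and on TMM-scaled CPM each of these separations was gone. The 30d-7d triplet averaged 4.42 ± 1.15 FPKM and 0d-7d 2.30 ± 0.939 FPKM (SD, n = 3 each), a log2 change of 1.01 (SE 0.481; edgeR's quasi-likelihood test, unadjusted p = 0.0565, adjusted p = 1).

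contig_60040 (3590 bases) matches nuclear receptor subfamily 2 group C member 2 of *C. gigas*, whose mammalian counterpart is the orphan receptor TR4. It had 2.40, 2.28 and 1.31 FPKM in 0d-7d, 2.34, 1.91 and 2.72 FPKM in 0d-28d, 2.04, 2.26 and 2.11 FPKM in 30d-7d and 1.95, 2.34 and 2.18 FPKM in 30d-28d, against 1.87, 1.70 and 1.91 FPKM in control. It was the steadiest of the 10, with a highest value 2.07 times its lowest and a biological coefficient of variation of 0.383, below which lay 2.21% of tested unigenes; the median was 0.549 over the 10 unigenes and 0.710 over all tested. These comparisons with all tested unigenes were not matched for level either. All 30d-28d libraries lay above all control libraries on both scales, in FPKM by a narrow gap: the lowest of 30d-28d was 1.95 FPKM and the highest of control 1.91 FPKM.

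The largest log2 change of contig_60040 relative to control was 0.59 in 0d-28d (SE 0.321; edgeR's quasi-likelihood test, unadjusted p = 0.0878, adjusted p = 0.620). In 30d-28d it was 0.40 (SE 0.320; adjusted p = 1). The 0d-28d libraries were all above control on TMM-scaled CPM, and in FPKM they touched the control range, with 1.91 FPKM in 0d-28d library 2. The 30d-7d libraries were all above control in FPKM and overlapped it on TMM-scaled CPM.

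The ecdysone-induced factor stood highest in the triplets coded 30d-7d and 30d-28d. contig_19775 (3935 bases) matches ecdysone-induced protein 74EF isoform B of the ant *Trachymyrmex cornetzi*; in *Drosophila* E74 is an ETS-domain transcription factor switched on early by ecdysone, not a receptor. It had 3.70, 4.22 and 6.45 FPKM in 0d-7d, 6.57, 8.56 and 4.17 FPKM in 0d-28d, 8.66, 9.50 and 9.58 FPKM in 30d-7d and 11.9, 7.44 and 7.45 FPKM in 30d-28d, against 8.36, 3.84 and 6.53 FPKM in control. All 30d-7d and all 30d-28d libraries lay above all 0d-7d libraries, and those of 30d-7d also above control and above 0d-28d. On TMM-scaled CPM the 30d-28d libraries were above 0d-7d and above control, and the 30d-7d libraries overlapped the other triplets.

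contig_19775 averaged 8.93 ± 2.57 FPKM in 30d-28d, 9.25 ± 0.509 FPKM in 30d-7d and 4.79 ± 1.46 FPKM in 0d-7d (SD, n = 3 each). Its log2 change was 1.13 in 30d-28d against 0d-7d (SE 0.393; edgeR's quasi-likelihood test, unadjusted p = 0.0138, adjusted p = 0.885) and 0.88 in 30d-7d against 0d-7d (SE 0.391; unadjusted p = 0.0439, adjusted p = 1). At an unadjusted p under 0.05, 5.32% and 4.21% of all tested unigenes stood in these comparisons. By the treatment text these are 7 d in aged soil and 28 d in fresh soil, each against 0 d.

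The coactivator subunit varied widely. contig_38629 (3902 bases) matches a thyroid hormone receptor-associated protein complex subunit of the tick *Ixodes ricinus*; in mammals that complex is a form of Mediator, so it is a partner of receptors. It had 1.69, 3.83 and 0.465 FPKM in 0d-7d, 3.88, 1.93 and 1.84 FPKM in 0d-28d, 4.84, 1.45 and 3.13 FPKM in 30d-7d and 2.95, 3.46 and 4.65 FPKM in 30d-28d, against 1.17, 3.76 and 2.18 FPKM in control. Every exposed triplet overlapped control. Its log2 change was 0.78 in 30d-28d against control (SE 0.680; adjusted p = 1) and 1.08 in 30d-28d against 0d-7d (SE 0.684; adjusted p = 0.898, edgeR's quasi-likelihood test).

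The 9 unigenes other than contig_115639 passed the test in none of the 10 contrasts, nor in the test of any difference among the triplets. edgeR's quasi-likelihood test at an adjusted p under 0.05 called 0.000989% of the 101090 tested unigenes (1 unigene, no member) in each comparison with control and in the test over all triplets, and 0% in the 6 other contrasts. The lowest adjusted p of the 9 was 0.605 among the contrasts and 0.862 over all triplets. At an unadjusted p under 0.05 stood 4.74% of all tested unigenes in 0d-7d relative to control, 8.35% of them with 0d-28d, 3.5% with 30d-7d and 4.31% with 30d-28d so compared, 4.21%, 9.09% and 5.32% in 30d-7d, 0d-28d and 30d-28d relative to 0d-7d, 6.29% and 6.28% in 30d-28d and 30d-7d relative to 0d-28d, 3.09% in 30d-28d relative to 30d-7d and 6.07% over all triplets. Of the 9, contig_19775 alone did so, in the contrasts given above, and DESeq2 and limma on FPKM also called none of the 9. By the code, soil aging is 30d-28d against 0d-28d and 30d-7d against 0d-7d. The first minus the second passed for 0 of 9 (lowest adjusted p = 0.904 by edgeR's quasi-likelihood test). At an unadjusted p under 0.05 stood 0 of 9 and 5.6% of all tested unigenes.

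Relative to control, log2 changes were positive for 4 of the 9 in 0d-7d (median -0.14), 7 in 0d-28d (median 0.31), 8 in 30d-7d (median 0.32) and 9 in 30d-28d (median 0.59). Over all tested unigenes the shares positive were 47.7%, 50.0%, 48.2% and 47.4% and the medians -0.040, 0.00034, -0.028 and -0.044. These contrasts share the control libraries. Marker shares are given beside these changes. The nerve share was 0.0479% to 0.0578% of the reads in 30d-28d and 0.0422% to 0.0606% in 30d-7d. Both lay above control at 0.0368% to 0.0420%, while 0d-7d and 0d-28d overlapped control. The 0d-28d triplet, with 7 of the 9 positive, had a nerve share of 0.0397% to 0.0435%. The muscle list took 0.313% to 1.005% in 30d-28d, against 0.138% to 0.318% in control, with a small overlap. It took 0.186% to 1.11% in 0d-7d, 0.133% to 0.253% in 0d-28d and 0.182% to 0.310% in 30d-7d. Over the 15 libraries Spearman's rho of the 9 unigenes was 0.24 to 0.55 with the nerve share. With the muscle share it was -0.33 to 0.15, and with the gut share -0.34 to 0.58. Such values describe libraries that share depth and tissue make-up. The part of nerve, muscle and gut tissue in the positive changes was not tested. Single libraries moved the median. Its lowest and highest values with 1 library left out were -0.35 and 0.18 in 0d-7d (leaving out its library 2 or its library 3), 0.16 and 0.40 in 0d-28d (leaving out its library 2 or its library 3), 0.089 (without 30d-7d library 3) and 0.48 (without control library 2) in 30d-7d, and 0.41 (without 30d-28d library 1) and 0.66 (without control library 2) in 30d-28d. The count of positive changes in 30d-28d was 7 of 9 without its library 1, and that in 0d-7d was 1 of 9 without its library 1 or its library 2 and 6 of 9 without its library 3.

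**Figure D5:**
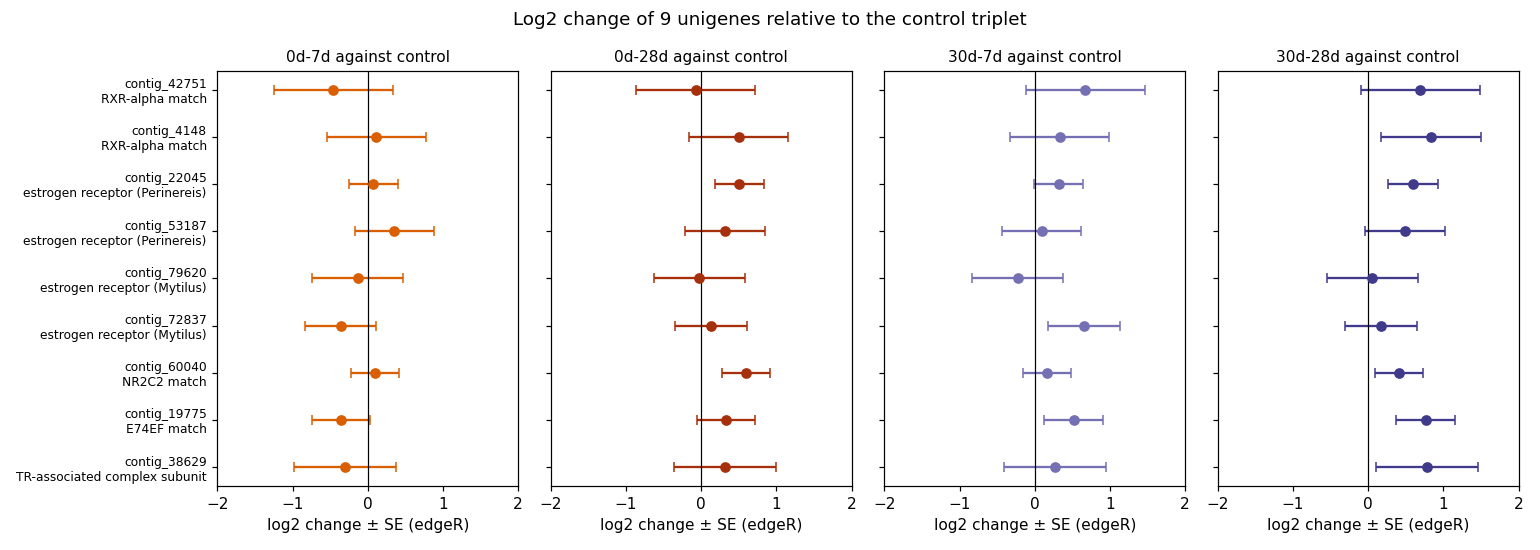
Log2 change relative to the control triplet (x axis) of the 9 tested unigenes (y axis), 1 panel per exposed triplet, with bars of ± 1 SE from the edgeR fit. All 9 points of 30d-28d lie right of 0, with a median of 0.59, and 4 of 9 do so in 0d-7d.

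Separations between triplets, counted over the 9 unigenes, were found in higher values alone. In 30d-28d against control 2 of 9 were separate in FPKM (contig_22045 and contig_60040), where 4.61% of all tested unigenes were separate and higher, and 3 of 9 on TMM-scaled CPM (contig_19775 besides these), with 4.84% of all. In 30d-7d against control 3 of 9 were separate in FPKM, with 4.23% of all, and 0 of 9 on TMM-scaled CPM, with 2.92% of all. In 30d-28d against 0d-7d 2 of 9 were separate on both scales (contig_19775 and contig_22045), with 4.59% of all in FPKM and 5.93% on TMM-scaled CPM. In 30d-7d against 0d-7d and against 0d-28d 2 of 9 each were separate in FPKM, with 4.62% and 5.62% of all, and none on TMM-scaled CPM, with 4.21% and 4.38%. On TMM-scaled CPM 1 of 9 was separate in 0d-28d against control (contig_60040, 5.71% of all) and 1 of 9 in 30d-28d against 30d-7d (contig_22045, 4.23% of all). Over the 10 contrasts and 9 unigenes, 11 of 90 were separate and higher in FPKM, 7 of 90 on TMM-scaled CPM and 4 on both, and none was separate and lower. Over the same contrasts 4.59% of all tested unigenes were separate and higher in FPKM and 4.69% on TMM-scaled CPM, and 4.61% and 4.95% were separate and lower.

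Single libraries held many of the extremes. 0d-7d library 3 had the lowest FPKM of 7 of the 10 unigenes, contig_115639, contig_4148, contig_22045, contig_53187, contig_72837, contig_38629 and contig_60040. That library had the highest muscle share, 1.11%, and the highest blood share, 2.03%, and its part in the low values was not tested. 30d-28d library 1 had the highest FPKM of 3 unigenes, contig_42751, contig_4148 and contig_19775. The reads of the 10 unigenes summed, without TMM, to 638 CPM in 30d-28d library 1 and 119 CPM in 0d-7d library 3.

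Genes that work with nuclear receptors were read from 5 lists of protein names with 127 unigenes, of which 94 were tested. None was called in any of the 11 comparisons, by edgeR's quasi-likelihood test or by DESeq2 at an adjusted p under 0.05. Of all 101090 tested unigenes edgeR called at most 0.000989% in a comparison, and DESeq2 called 281 to 1042 unigenes. At an unadjusted p under 0.05 the lists were fullest in 0d-28d against 0d-7d, where 15 of 94 stood, with 9.09% of all tested unigenes. These were 3 of 8 coregulators, 11 of 67 steroid and retinoid enzymes and carriers, 1 of 12 of the reproductive output list, and 0 of 4 other nuclear receptors and 0 of 3 chaperones. Of the 9 other contrasts, 0d-28d against control held the most, 12 of 94, beside 8.35% of all tested unigenes. The fewest, 0 of 94, were found for 30d-28d relative to 30d-7d, beside 3.09% of all. The remaining contrasts held 1 to 7 of 94, beside 3.5% to 6.29% of all. The highest of these, 7 of 94, was for 30d-7d relative to 0d-28d, beside 6.28% of all. Whether the lists differed from all tested unigenes was not tested. For changes relative to control, the counts and medians of the lists below stand beside the shares positive and medians over all tested unigenes given above.

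The 4 other nuclear receptors by name were a pair of HR3 matches, a hepatocyte nuclear factor 4 match and a vitamin D3 receptor match. Their median log2 change relative to control was -0.066 in 0d-7d (1 of 4 positive), 0.21 in 0d-28d (3 of 4), 0.28 in 30d-7d (4 of 4) and 0.51 in 30d-28d (4 of 4). The more abundant HR3 match, contig_9908, a counterpart of an insect receptor that acts in molting, averaged 4.35 ± 1.67 FPKM in 0d-7d, 4.60 ± 1.94 FPKM in 0d-28d, 5.34 ± 1.45 FPKM in 30d-7d, 5.27 ± 1.02 FPKM in 30d-28d and 4.13 ± 1.39 FPKM in control (SD, n = 3 each). Each pair of these means differed by less than the larger of the SDs.

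The coregulators, 9 unigenes of Mediator and a corepressor with 8 tested, were all 8 positive in 0d-28d against 0d-7d (median log2 0.69), and 1 of 8 was positive in 0d-7d against control (median -0.087). Both counts rest on the same 0d-7d libraries. For 0d-28d against 0d-7d the share positive over all tested unigenes is not given here, so that count and median are not set against it. The germ line share of 0d-28d, above that of all other triplets, moved with the changes in 0d-28d against 0d-7d, and its part was not tested. Mediator subunit 15 (contig_151126), the most abundant, had 8.24, 8.78 and 7.14 FPKM in 0d-7d, 8.44, 10.06 and 12.2 FPKM in 0d-28d, 13.8, 13.9 and 11.5 FPKM in 30d-7d and 12.5, 8.92 and 9.57 FPKM in 30d-28d, against 11.2, 10.5 and 8.49 FPKM in control. Of these triplets 30d-7d alone was apart from control, in FPKM and not on TMM-scaled CPM. Its log2 changes relative to control were -0.41, 0.14, 0.16 and 0.096 in the order of the values above (SE 0.298 to 0.299; adjusted p of 1, 0.939, 1 and 1, edgeR's quasi-likelihood test).

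Mediator subunit 31 (contig_47373) had 11.97, 5.95 and 5.43 FPKM in 0d-7d, 10.2, 15.2 and 12.7 FPKM in 0d-28d, 15.9, 9.43 and 9.78 FPKM in 30d-7d and 14.2, 10.6 and 8.82 FPKM in 30d-28d, against 6.77, 8.05 and 7.26 FPKM in control. The 0d-28d and the 30d-28d libraries lay above all control libraries on both scales, those of 30d-7d in FPKM alone, and 0d-7d overlapped control. Separate and higher against control were 5.09% of all tested unigenes in FPKM and 5.71% on TMM-scaled CPM in 0d-28d, 4.61% and 4.84% in 30d-28d, and 4.23% and 2.92% in 30d-7d. The log2 change of contig_47373 against control was 0.65 in 0d-28d (SE 0.416; edgeR's quasi-likelihood test, adjusted p = 0.678), 0.49 in 30d-28d (SE 0.415; adjusted p = 1), 0.21 in 30d-7d (SE 0.416; adjusted p = 1) and -0.092 in 0d-7d (SE 0.416; adjusted p = 1).

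Hsp90, the chaperone that holds steroid receptors ready for ligand, had 17 matches of which 3 were tested, most of the others being rare contigs matched to distant organisms. The most abundant, contig_1075, had 29.4, 20.4 and 15.2 FPKM in 0d-7d, against 72.6, 35.9 and 45.4 FPKM in control. The 0d-7d libraries were all lower on both scales, as were 4% of all tested unigenes in FPKM and 4.98% on TMM-scaled CPM, with a log2 change of -1.31 (SE 0.588; edgeR's quasi-likelihood test, unadjusted p = 0.0452, adjusted p = 1). The other exposed triplets reached 49.7 FPKM in 0d-28d, 38.9 FPKM in 30d-7d and 53.8 FPKM in 30d-28d and overlapped control. The next, contig_268005, had 39.1, 3.07 and 3.61 FPKM in 30d-28d, against 1.60, 0.873 and 0.122 FPKM in 0d-7d, a log2 change of 4.17 (SE 1.39; edgeR's quasi-likelihood test, unadjusted p = 0.0106, adjusted p = 0.885). The 30d-28d libraries were all higher on both scales, and library 1 stood far above the others. Of all tested unigenes 4.59% were so in FPKM and 5.93% on TMM-scaled CPM. Those of 30d-7d, at 3.29, 3.21 and 3.80 FPKM, also lay above 0d-7d on both scales (4.62% and 4.21% of all). Control had 1.603, 3.14 and 7.49 FPKM, so 30d-28d overlapped it. The 0d-7d libraries of contig_268005 lay below control on both scales, in FPKM by 1.602 against 1.603.

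Enzymes and carriers of steroids and retinoids, 82 unigenes with 67 tested, had median log2 changes relative to control of 0.089 in 0d-7d and 0.29 with 0d-28d, and of -0.16 with 30d-7d and -0.040 with 30d-28d. Retinal dehydrogenase 2 (contig_93), which makes retinoic acid, was the most abundant and averaged 68.4 ± 26.8 FPKM in 0d-7d, 61.5 ± 43.4 FPKM in 0d-28d, 51.5 ± 11.6 FPKM in 30d-7d, 59.7 ± 8.85 FPKM in 30d-28d and 56.7 ± 26.4 FPKM in control (SD, n = 3 each). Its triplet means lay within the spread of control.

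Of the reproductive output list, 15 unigenes with 12 tested, 2 of 12 were positive in 0d-7d against control (median log2 -1.41), 5 in 0d-28d (median -0.99), 2 in 30d-7d (median -0.46) and 6 in 30d-28d (median 0.0046). Annetocin (First_Contig6892), the oxytocin-like peptide of this species that induces egg laying, was high in single libraries: 145 FPKM in 0d-7d library 2, 594 FPKM in 30d-7d library 1, 730 FPKM in 30d-28d library 3 and 775 FPKM in control library 2, and at most 5.71 FPKM in the 11 others. The vitellogenin receptor match (contig_10819), a yolk receptor, had 90.9, 13.7 and 13.96 FPKM in 30d-7d, against 10.01, 15.4 and 15.3 FPKM in control, so that 1 library made up the difference of the means.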

How the data were processed

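The members, the gene lists and the tests were chosen with earlier results of these data known. Per the file headers, the authors deposited a whole-number read count and an FPKM value for every unigene and library, with the unigene length and a best protein match. How reads were assembled, aligned and counted, and how reads that fit several unigenes were treated, is not given in the sources used here. Names come from the deposited matches; no genome position and no sequence was used. All per-sample columns were used, and FPKM was 0 wherever the count was 0.

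The deposited counts were tested with edgeR 4.0.16 (filterByExpr with a minimum count of 10 and a minimum total count of 15, TMM scaling, quasi-likelihood F tests, two-sided) in one fit of 15 libraries with 10 residual degrees of freedom. It tested 101090 unigenes, and p-values were adjusted over all of them by Benjamini-Hochberg, with a threshold of 0.05. The common biological coefficient of variation was 0.923. Log2 changes come from this fit, and their SE is the change over the square root of F. Means are ± SD over 3 libraries. All 10 pairwise contrasts and the difference among all triplets were tested. Alternatives were DESeq2 1.42.0, DESeq2 size factors, no filter, a replicate block, limma 3.58.1 on log2(FPKM + 1) and log2(FPKM + 0.1) of the deposited FPKM, and each library left out. The fit was also run on simulated counts with less spread between libraries than these data, so that run does not show how many changes were missed here. All members are named, with the most abundant pair of each pathway list where it helps. Library totals of 13182058 to 28022746 reads limit precision for rare unigenes. Marker shares are percent of the deposited counts.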

Additional observations from a re-analysis of the deposited data

How the results depend on the processing

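Over 21 alternative settings and 11 comparisons none of the 9 unigenes passed the threshold, and the lowest adjusted p was 0.231 (DESeq2, contig_19775, the ecdysone-induced factor, 30d-28d against 0d-7d). What moved was the number of unigenes called in the whole table. DESeq2 called 321 unigenes in 0d-7d, 863 unigenes in 0d-28d, 281 unigenes in 30d-7d and 381 unigenes in 30d-28d against control, 310 in 30d-7d against 0d-7d, 549 in 30d-28d against 0d-28d, 896 in 0d-28d against 0d-7d, 295 in 30d-28d against 30d-7d, 400 in 30d-28d against 0d-7d, 513 in 30d-7d against 0d-28d and 1042 among all triplets; the cause was not tested. limma on log2(FPKM + 1) called 5, 4, 4 and 3 in the comparisons with control, 1 in 30d-28d against 0d-28d, 3 in 0d-28d against 0d-7d, 1 in 30d-7d against 0d-28d and 6 among all triplets. On log2(FPKM + 0.1) it called 12, 2, 6 and 9, then 5 in 30d-7d against 0d-7d, 2 in 30d-28d against 30d-7d and 11 among all triplets. Without the filter 2 were called in 0d-7d and in 30d-28d against control and among all triplets.

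Leaving out 1 library gave 0 to 2 calls in 0d-7d, 0 to 3 calls in 0d-28d, 0 to 1 call in 30d-7d and 0 to 2 calls in 30d-28d against control, 0 to 1 in 30d-7d, 0d-28d and 30d-28d against 0d-7d, 0 to 2 in 30d-28d and 30d-7d against 0d-28d, 0 in 30d-28d against 30d-7d and 1 to 3 among all triplets. For contig_42751 the log2 change ran from -1.03 to 0.23 in 0d-28d, -0.22 to 1.10 in 30d-7d and -0.32 to 1.06 in 30d-28d against control. That of contig_53187 ran from -0.14 to 0.81 in 0d-7d, that of contig_72837 from -0.38 to 0.41 in 30d-28d, and that of contig_79620 from -0.61 to 0.76 in 30d-7d and -0.33 to 1.05 in 30d-28d against control, and -0.046 to 0.57 in 30d-28d against 30d-7d. For contig_115639, which was not tested, 30d-28d against control ran from -0.70 to 0.32. limma on log2(FPKM + 1) and log2(FPKM + 0.1) gave contig_72837 -0.046 and -0.087 in 30d-28d against control, contig_79620 0.078 and 0.16 in 30d-7d against control, and -0.0075 and -0.025 in 30d-28d against 30d-7d.

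Equal replicate numbers did not pair the libraries: deviations from the triplet means correlated at -0.0576 on average for equal numbers (30 pairs) and 0.0289 for unequal ones (60 pairs), and 3 of 15 libraries were closest to their own number. With the replicate number as a block the fit called 0 in 0d-7d against control and again none of the 9 unigenes.

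Levels of contig_115639 rest on 16 to 233 reads per library, and an adjusted p above the threshold does not show that a unigene was equal between triplets.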
